A study of Homo sapiens with 9 samples.

Results

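The sirtuins are a family of 7 human genes, SIRT1 to SIRT7, and every one of them was found by its symbol among the 57766 genes of the expression table. They were chosen by name, as NAD-dependent enzymes that hold a structural zinc, with earlier results of these data known. Of the 7 genes, 6 passed the filter on low values, at least 1 RPKM in at least 3 libraries, and were tested among 15774 genes. SIRT4 did not pass and is given by its values.

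The cells were HEK293 Freestyle cells, a human embryonic kidney line adapted to suspension culture, and their polyadenylated RNA was sequenced after 36 h in 3 media. The depleted group received Freestyle medium from which Zn(II) had been removed, the repleted group the same depleted medium with Zn(II) put back, and the full group Freestyle medium as supplied. Each group held 3 libraries, described in the labels as a biological triplicate. All cells came from this single line, the labels give no genetic difference between groups, and how Zn(II) was removed is not given in the sources used here. In all groups the cells had been kept in Freestyle medium at 1000000 cells/mL for 18 h or more, washed in PBS, brought to 4000000 cells/mL and plated. The labels also name a wash with EDTA, a chelator of zinc and other metals, in a clause that does not make clear whether it applied to plates or to media. Values are RPKM, reads scaled to gene length and library total, which allows levels of different genes to be set side by side. Differences are given as log2 of RPKM plus 1, which understates the change of genes at low levels. Adjusted p-values are those of limma over all 15774 tested genes, and a gene is said to have risen or fallen where this value was under 0.05. The table holds no read counts, so the depth behind each value is unknown.

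Sirtuins remove acetyl and other acyl groups from lysines of proteins and consume NAD in each reaction, releasing nicotinamide. A zinc ion held by conserved cysteines keeps part of the enzyme folded, and it takes no part in the reaction, unlike the zinc at the active site of the classical histone deacetylases. SIRT1, SIRT6 and SIRT7 reside mainly in the nucleus, SIRT2 mainly in the cytosol, and SIRT3, SIRT4 and SIRT5 mainly in mitochondria.

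The medium was checked on genes that follow cellular zinc. MT2A, a metallothionein, averaged 6.46 ± 0.687 RPKM in depleted cells, 93.5 ± 3.34 RPKM in repleted cells and 191 ± 8.9 RPKM in full cells (SD, n = 3 each). SLC39A10, a zinc importer, averaged 49.9 ± 1.22 RPKM in depleted cells, 14.9 ± 0.389 RPKM in repleted cells and 17.2 ± 0.645 RPKM in full cells. MT2A was lower in repleted than in full cells (log2 difference -1.02, adjusted p = 0.00114). Of 7 genes that mark HEK293 cells, all were detected, and their summed level was 825 to 845 RPKM in depleted libraries, 818 to 841 RPKM in repleted libraries and 836 to 849 RPKM in full libraries. Most of that sum was VIM, an intermediate filament gene that rose, at 665 ± 11.3 RPKM in depleted cells, 585 ± 4.67 RPKM in repleted cells and 577 ± 6.12 RPKM in full cells, so the sum hides opposite moves. Of the 7 markers 4 fell and 1 rose in depleted against full cells, and 5 fell and 2 rose against repleted cells (1 rose without library depleted 1, depleted 2, repleted 1 or repleted 2). Among those that fell was NEFL, a neurofilament, at 6.53 ± 0.376 RPKM in depleted cells and 31.8 ± 1.71 RPKM in full cells. Of all tested genes 60.9% passed in depleted against full cells and 60.7% in depleted against repleted cells. Markers of other lineages, 9 of 10 of them found in the table, summed to 1.16 to 2.73 RPKM in depleted libraries, 1.66 to 2.25 RPKM in repleted libraries and 2.0 to 2.58 RPKM in full libraries, and HBB and INS were at 0 in every library. The part of the HEK293 marker shifts in the sirtuin results was not tested. In bulk RNA, a change in the cells present and a change in RNA per cell cannot be told apart.

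Depleted cells held more SIRT6 and SIRT1 transcript and less SIRT3 transcript than either repleted or full cells. SIRT6 was 2.59-fold and SIRT1 1.72-fold higher in depleted than in full cells, and SIRT3 was 1.53-fold lower. SIRT5, SIRT7 and SIRT2 rose by smaller amounts against full cells, by 1.41-fold, 1.25-fold and 1.1-fold. In all, 5 sirtuin genes rose and 1 fell in depleted against full cells, and 4 rose and 1 fell in depleted against repleted cells. These counts stand against a wide background, since 60.9% of all tested genes passed in depleted against full cells (29.8% higher and 31.2% lower) and 60.7% in depleted against repleted cells (29.5% higher and 31.2% lower). Each count of sirtuins is to be read against these shares. The median log2 difference of the 6 tested sirtuins was 0.38 against full and 0.24 against repleted cells, where the medians over all tested genes were 0.001 and -0.01. Both depleted comparisons use the same depleted libraries. Between repleted and full cells 0 sirtuins passed with limma, and of all genes 0.0317% passed (0% higher and 0.0317% lower). At an unadjusted p under 0.05 there were 2 sirtuins, SIRT5 and SIRT6, and 7.76% of all tested genes. SIRT2, SIRT3 and SIRT7 differed between repleted and full cells by -0.02, 0.08 and 0.06 on the log2 scale (adjusted p = 0.928, 0.907 and 0.918). Without library repleted 1 the signs of SIRT3 and SIRT7 changed (-0.03 and -0.05), and without full 2 the difference of SIRT2 came to 0.0.

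**Figure D1:**
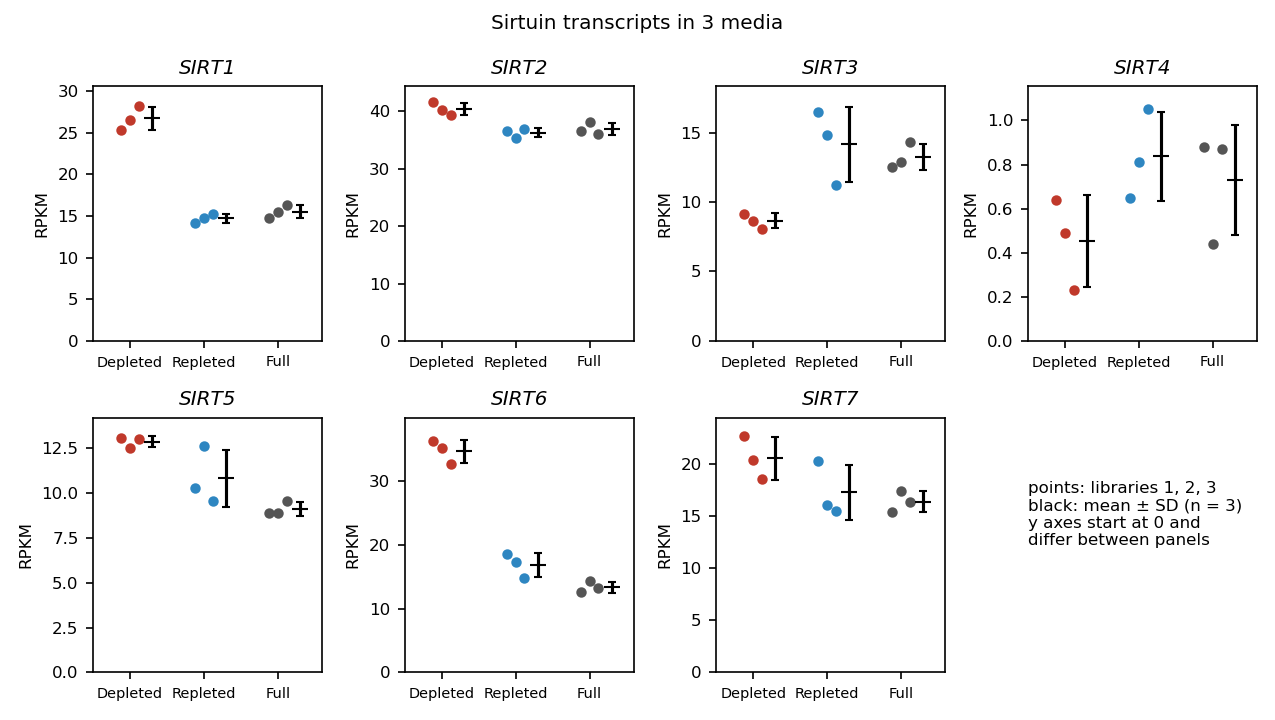
Level of each of the 7 sirtuin transcripts in RPKM (vertical axes, each from 0 and on its own scale) in the 9 libraries, by medium, with the mean and SD of each group in black. The depleted libraries of SIRT6 sit between 32.6 and 36.2 RPKM, above every repleted and full library, and those of SIRT3 sit between 8.08 and 9.16 RPKM, below every repleted and full library.

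The promoter windows of the 3 members with the largest differences are shown because they can be searched for the sequence that the zinc sensor MTF-1 binds, the metal response element, and for the E-box, a site of MYC and related factors. The windows come from RefSeq on GRCh38.p14, a later build than the hg19 named for the deposited values, and span 250 bases before to 50 after the annotated start, written 5′ to 3′ on the gene's strand. Capitals mark matches on either strand to the core of the metal response element, searched as TGCACNC or TGCGCNC, and to the E-box, searched as CACGTG.
SIRT6, chr19:4182514-4182813, minus strand: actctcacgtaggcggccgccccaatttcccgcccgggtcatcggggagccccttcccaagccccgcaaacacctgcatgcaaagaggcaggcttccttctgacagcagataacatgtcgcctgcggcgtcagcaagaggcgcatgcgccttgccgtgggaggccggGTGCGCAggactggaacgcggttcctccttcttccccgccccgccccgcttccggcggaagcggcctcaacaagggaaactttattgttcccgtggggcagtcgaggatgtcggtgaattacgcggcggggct
SIRT1, chr10:67884406-67884705, plus strand: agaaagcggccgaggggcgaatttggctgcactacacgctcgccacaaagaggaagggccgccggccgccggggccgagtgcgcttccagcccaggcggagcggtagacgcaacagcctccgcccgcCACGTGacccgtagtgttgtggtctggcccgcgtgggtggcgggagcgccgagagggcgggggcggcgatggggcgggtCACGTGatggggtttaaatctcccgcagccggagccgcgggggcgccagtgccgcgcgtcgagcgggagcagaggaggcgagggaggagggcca
SIRT3, chr11:236882-237181, minus strand: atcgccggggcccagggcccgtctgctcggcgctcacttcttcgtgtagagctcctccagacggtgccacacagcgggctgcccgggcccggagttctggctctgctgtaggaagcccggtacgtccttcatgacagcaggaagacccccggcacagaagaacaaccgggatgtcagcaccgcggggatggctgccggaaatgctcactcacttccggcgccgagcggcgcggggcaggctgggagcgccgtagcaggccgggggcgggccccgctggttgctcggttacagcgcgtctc
The SIRT6 window held 1 metal response element core, on the reverse strand, 83 to 77 bases before the start. The SIRT1 window held 2 E-boxes, 123 to 118 and 44 to 39 bases before the start. The SIRT3 window held neither set of letters. Of 35116 windows of this length in the genome, 29.6% held the metal response element core and 7.26% held the E-box. RefSeq windows matched 6 of the 7 sirtuins, all but SIRT7, and no matches overlapped in the windows shown. The core was also found in windows of SIRT4 and SIRT5, of which SIRT5 rose and SIRT4 was too low to test, and in another start window of SIRT6. The GC content of the windows shown was 65.0% for SIRT6, 72.7% for SIRT1 and 69.3% for SIRT3, against a median of 58.7% over all windows. A match of letters is a description of the sequence and not evidence of binding.

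Among the nuclear members, SIRT6 (ENSG00000077463), a deacylase of histone H3 that works in DNA repair, telomere upkeep and repression of glycolytic genes, had the largest difference of the family. Its level was 36.2, 35.1 and 32.6 RPKM in the depleted libraries, 18.5, 17.3 and 14.8 RPKM in the repleted libraries and 12.6, 14.3 and 13.2 RPKM in the full libraries. All 3 depleted libraries lay far above the other 6, with no overlap. SIRT6 rose in depleted against full cells by 1.31 on the log2 scale (SE 0.08, 95% interval 1.12 to 1.5, adjusted p = 1.05e-06), and 256 of the tested genes, 1.62%, had a larger positive difference. Against repleted cells it rose 2.05-fold (log2 difference 1.0, SE 0.08, 95% interval 0.81 to 1.19, adjusted p = 6.17e-06), with 542 genes, 3.44%, ahead of it. The repleted libraries also lay above the full ones without overlap, at 16.9 ± 1.9 RPKM in repleted cells and 13.4 ± 0.878 RPKM in full cells, a 1.26-fold difference. That difference, 0.31 on the log2 scale (95% interval 0.12 to 0.5), had an unadjusted p of 0.00498 and did not pass after adjustment (adjusted p = 0.468).

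SIRT1 (ENSG00000096717), which deacetylates FOXO factors and histones and is the best known nutrient-responsive member, came next. It measured 25.4, 26.6 and 28.2 RPKM in the depleted libraries, 14.2, 14.8 and 15.2 RPKM in the repleted libraries and 14.8, 15.5 and 16.3 RPKM in the full libraries. The depleted libraries formed a group of their own, while repleted and full libraries overlapped. SIRT1 rose in depleted against full cells by 0.75 on the log2 scale (SE 0.06, 95% interval 0.62 to 0.88, adjusted p = 3.65e-06) and against repleted cells by 0.82 (SE 0.06, 95% interval 0.69 to 0.95, adjusted p = 1.99e-06). Larger positive differences were found for 1155 genes, 7.32% of those tested, against full cells and for 915 genes, 5.8%, against repleted cells. Repleted and full cells differed by -0.07 (95% interval -0.2 to 0.06, adjusted p = 0.807). The calls of SIRT1 and SIRT6 in both depleted comparisons held under all 17 alternatives.

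SIRT7 (ENSG00000187531), a nucleolar deacylase tied to ribosomal RNA transcription, had smaller and less certain differences. It stood at 22.7, 20.4 and 18.6 RPKM in the depleted libraries, 20.3, 16.1 and 15.5 RPKM in the repleted libraries and 15.4, 17.4 and 16.4 RPKM in the full libraries. The depleted libraries lay above the full ones, but the highest repleted library lay inside the depleted range. SIRT7 rose against full cells by 0.31 on the log2 scale (SE 0.11, 95% interval 0.07 to 0.54, adjusted p = 0.0298), and against repleted cells it differed by 0.24 (95% interval 0.0 to 0.48, adjusted p = 0.0735). The call against full cells was lost with no filter (adjusted p = 0.0728), and it was also lost when 1 library was left out, namely full 1 (0.0938), full 3 (0.0641), depleted 1 (0.104) or depleted 2 (0.0642). Over the alternatives its adjusted p ran between 0.00898 and 0.104. The difference against repleted cells passed with median centring (adjusted p = 0.0303), without depleted replicate 3 (0.0459) and without repleted replicate 1 (0.00816).

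SIRT2 (ENSG00000068903), the cytosolic member known for deacetylating alpha-tubulin, had the highest level of the family in every medium and the smallest rise. It measured 41.6, 40.2 and 39.4 RPKM in the depleted libraries, 36.6, 35.4 and 36.9 RPKM in the repleted libraries and 36.5, 38.1 and 36.1 RPKM in the full libraries. The lowest depleted library stood just above the highest repleted and full ones. The rise was 0.13 on the log2 scale against full cells (SE 0.04, 95% interval 0.04 to 0.22, adjusted p = 0.0213) and 0.15 against repleted cells (SE 0.04, 95% interval 0.06 to 0.24, adjusted p = 0.00976), a size that 40.3% and 37.8% of tested genes exceeded in the positive direction. The call against full cells was lost when library full 1 (adjusted p = 0.0615), full 3 (0.0684), depleted 1 (0.0782) or depleted 2 (0.0502) was left out, with a range of 0.00491 to 0.0782 over the alternatives.

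Of the mitochondrial members, SIRT3 (ENSG00000142082), the main mitochondrial deacetylase, was the only tested sirtuin to fall, in both depleted comparisons. Its level was 9.16, 8.66 and 8.08 RPKM in the depleted libraries, 16.5, 14.8 and 11.2 RPKM in the repleted libraries and 12.5, 12.9 and 14.3 RPKM in the full libraries. Every depleted library lay below every other library, and the repleted libraries were the most spread, from the highest value of all 9 to the lowest outside the depleted group. SIRT3 fell by 0.56 on the log2 scale against full cells (SE 0.12, 95% interval of the difference -0.83 to -0.29, adjusted p = 0.0029) and by 0.64 against repleted cells (SE 0.12, 95% interval -0.92 to -0.37, adjusted p = 0.00127), and both calls held under all 17 alternatives. Against repleted cells the level was 1.65-fold lower. A larger fall was found for 2842 genes, 18.0% of those tested, against full cells and for 2381 genes, 15.1%, against repleted cells.

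SIRT5 (ENSG00000124523), which removes succinyl, malonyl and glutaryl groups, moved the other way from SIRT3. It stood at 13.1, 12.5 and 13.0 RPKM in the depleted libraries, 10.3, 12.6 and 9.55 RPKM in the repleted libraries and 8.9, 8.89 and 9.56 RPKM in the full libraries. Depleted and full libraries did not overlap, and repleted replicate 2 lay inside the depleted range. SIRT5 rose against full cells by 0.45 on the log2 scale (SE 0.09, 95% interval 0.25 to 0.66, adjusted p = 0.00189), with 17.7% of tested genes ahead of it. Against repleted cells the rise of 1.18-fold (log2 difference 0.23, SE 0.09, 95% interval 0.03 to 0.44) was at the edge of the threshold (adjusted p = 0.0494). That call was lost in 12 of 17 alternatives, among them the removal of any library other than repleted replicate 2 (adjusted p between 0.0595 and 0.163), and over all alternatives the adjusted p ran between 0.00323 and 0.163. Repleted cells averaged 10.8 ± 1.61 RPKM and full cells 9.12 ± 0.384 RPKM, a log2 difference of 0.22 (95% interval 0.01 to 0.42) with an unadjusted p of 0.0384 and an adjusted p of 0.612.

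SIRT4 (ENSG00000089163), a mitochondrial member with lipoamidase and ADP-ribosyltransferase activities, had the lowest level of the family and did not pass the filter on low values. It was listed at 0.64, 0.49 and 0.23 RPKM in the depleted libraries, 0.65, 0.81 and 1.05 RPKM in the repleted libraries and 0.88, 0.44 and 0.87 RPKM in the full libraries. Depleted and full libraries overlapped, and the depleted libraries lay just below the repleted ones. In a fit of all 36433 genes above 0, SIRT4 differed by -0.25 against full cells (SE 0.17, adjusted p = 0.386) and by -0.34 against repleted cells (SE 0.17, adjusted p = 0.206), so no difference was detectable at this level.

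**Figure D2:**
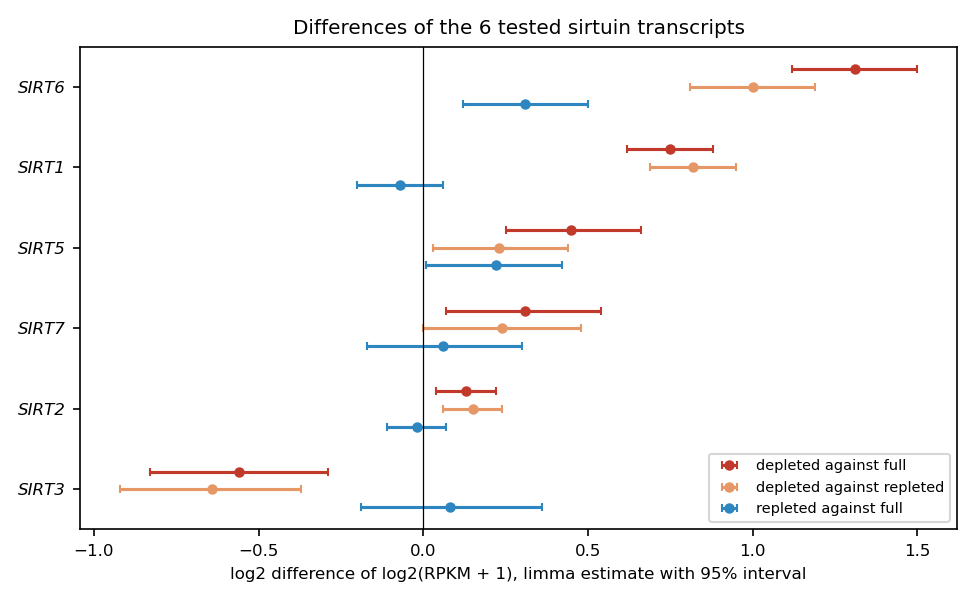
Log2 difference of log2(RPKM + 1) for the 6 tested sirtuin transcripts (horizontal axis) with the 95% interval of limma, for each pair of media. SIRT6 and SIRT1 have intervals well above 0 in both depleted comparisons, SIRT3 has intervals below 0, and the repleted against full intervals include 0 except those of SIRT6 (0.12 to 0.5) and SIRT5 (0.01 to 0.42).

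The rank order of the family shifted with the medium. In depleted cells the order from high to low was SIRT2, SIRT6, SIRT1, SIRT7, SIRT5, SIRT3 and SIRT4, and no neighbours in that order overlapped between libraries. In repleted cells it was SIRT2, SIRT7, SIRT6, SIRT1, SIRT3, SIRT5 and SIRT4, where only SIRT2 and SIRT7, and SIRT5 and SIRT4, were separate neighbours. In full cells it was SIRT2, SIRT7, SIRT1, SIRT6, SIRT3, SIRT5 and SIRT4, with overlap between SIRT7 and SIRT1 and between SIRT6 and SIRT3. SIRT6 thus stood next to the top in depleted cells, below SIRT7 in repleted cells and below both SIRT7 and SIRT1 in full cells, and SIRT5 and SIRT3 changed places between depleted cells and the other media. These orders describe means of 3 libraries and were not tested.

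Summed over the family, sirtuin transcripts came to 149, 144 and 140 RPKM in the depleted libraries, 117, 112 and 104 RPKM in the repleted libraries and 102, 108 and 107 RPKM in the full libraries. The depleted sums lay above all others, and repleted and full sums overlapped. SIRT6 made up 24.0 ± 0.63% of the sum in depleted cells, 15.1 ± 0.859% in repleted cells and 12.7 ± 0.528% in full cells (SD, n = 3 each). SIRT3 made up 5.98 ± 0.197% in depleted cells, 12.7 ± 1.73% in repleted cells and 12.5 ± 0.723% in full cells. The share of SIRT2 was 28.0 ± 0.0938% in depleted cells, 32.8 ± 2.31% in repleted cells and 35.0 ± 1.1% in full cells, although its own level was slightly higher in depleted cells. The share of SIRT1 was 18.6 ± 1.53% in depleted cells, 13.3 ± 1.24% in repleted cells and 14.7 ± 0.427% in full cells. Because shares sum to a fixed total, they are not independent of each other, and they are given without a test.

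**Figure D3:**
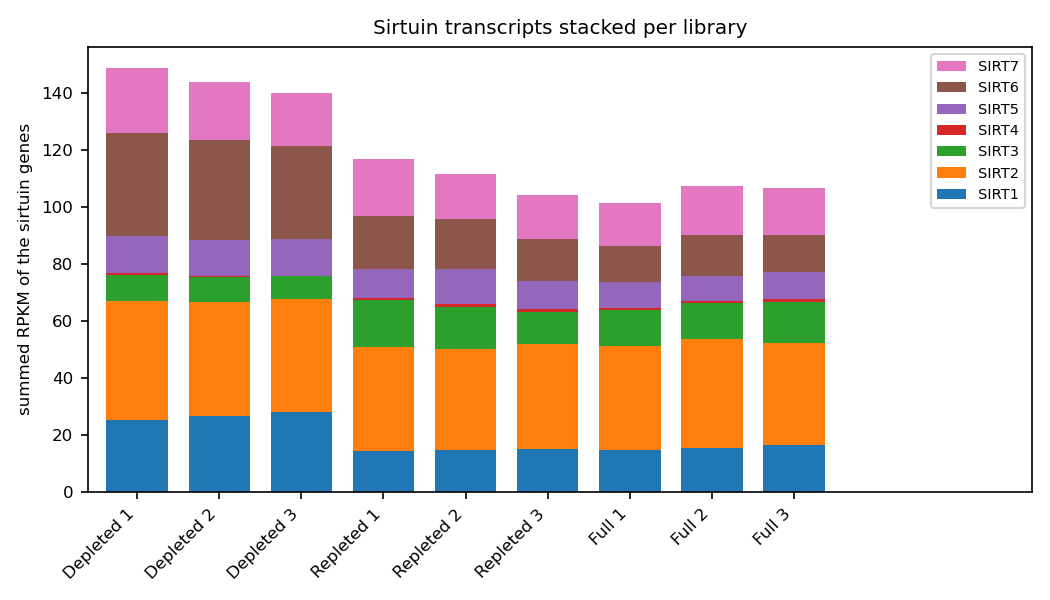
Summed RPKM of the 7 sirtuin transcripts in each of the 9 libraries (vertical axis from 0), stacked by gene. The depleted bars reach 140 to 149 RPKM and the repleted and full bars 102 to 117 RPKM, and the SIRT6 and SIRT1 segments are the ones that are visibly taller in depleted libraries.

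Several sirtuin genes share their locus with another gene, and whether reads were counted by strand is not given in the sources used here, so reads from overlapping stretches cannot be told apart. Overlaps and neighbours come from GENCODE 29, whose gene models may differ from those behind the deposited values, for which hg19 is named. In GENCODE 29, SIRT7 on chromosome 17 overlaps MAFG, a small MAF transcription factor on the same strand, which measured 29.1 ± 2.37 RPKM in depleted cells, 12.7 ± 0.265 RPKM in repleted cells and 14.0 ± 0.329 RPKM in full cells. MAFG rose by 1.01 on the log2 scale in depleted against full cells (adjusted p = 7.54e-07), a larger rise than that of SIRT7, and its part in the SIRT7 value was not tested. SIRT2 on chromosome 19 overlaps NFKBIB, an inhibitor of NF-kappaB on the opposite strand, at 43.3 ± 2.06 RPKM in depleted cells, 29.0 ± 1.88 RPKM in repleted cells and 28.0 ± 0.768 RPKM in full cells. NFKBIB rose by 0.61 (adjusted p = 1.17e-05), again more than SIRT2 itself, and its part in the SIRT2 value was not tested either. SIRT3 on chromosome 11 overlaps PSMD13, a proteasome subunit gene on the opposite strand, at 96.2 ± 4.9 RPKM in depleted cells, 112 ± 2.22 RPKM in repleted cells and 116 ± 2.61 RPKM in full cells, and PSMD13 fell by 0.27 (adjusted p = 0.000339). SIRT5 on chromosome 6 overlaps an antisense RNA at 0.697 ± 0.0808 RPKM in depleted cells and 1.03 ± 0.315 RPKM in full cells. SIRT1 on chromosome 10 and SIRT6 on chromosome 19 overlapped no other gene of GENCODE 29. Next to SIRT1, DNAJC12, a co-chaperone, fell by 0.95 and HERC4, a ubiquitin ligase, rose by 0.72 in depleted against full cells (adjusted p = 2.39e-07 and 1.11e-05), so its neighbours went in opposite directions. Of the neighbours of SIRT6, both too low to test, ANKRD24 averaged 1.04 ± 0.0794 RPKM in depleted cells and 0.35 ± 0.0557 RPKM in full cells, and CREB3L3 averaged 0.383 ± 0.0833 RPKM in depleted cells and 0.0133 ± 0.0231 RPKM in full cells. RINL next to SIRT2, RIC8A next to SIRT3 and PXN next to SIRT4 fell by 0.81, 0.71 and 0.64 against full cells. GFOD1 next to SIRT5 fell by 0.51, while NOL7 on its other side did not pass (log2 difference 0.09, adjusted p = 0.108). NOL7 did pass with median centring (adjusted p = 0.024) and without library full 1 (0.0174). PYCR1 and PCYT2 next to SIRT7 fell by 1.48 and 0.19.

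The genes around the sirtuin reaction were read from lists of NAD supply, NAD use, regulators, substrates, zinc-dependent histone deacetylases and lysine acetyltransferases. Each count of these lists is to be read against the shares of all tested genes. These were 29.8% higher and 31.2% lower in depleted against full cells, and 29.5% and 31.2% against repleted cells. Of 19 listed NAD synthesis and salvage genes 11 were tested, of which 5 rose and 1 fell in depleted against full cells (median log2 difference 0.18), and 4 rose and 2 fell against repleted cells (median 0.11). The fallen genes against repleted cells numbered 1 without library depleted 3, repleted 1 or repleted 3 and 3 without repleted 2, with medians from 0.06 to 0.18, and those against full cells numbered 2 without repleted 2. NAMPT, the rate-limiting enzyme that recycles the nicotinamide released by sirtuins, measured 54.4, 54.6 and 55.6 RPKM in the depleted libraries, 35.5, 33.4 and 33.8 RPKM in the repleted libraries and 38.2, 35.1 and 34.2 RPKM in the full libraries. NAMPT had depleted libraries above all others, as had SIRT1, SIRT2 and SIRT6. The share of all tested genes with such a gap is not given here. NAMPT rose by 0.6 against full cells (SE 0.05, adjusted p = 4.25e-06) and by 0.67 against repleted cells (SE 0.05, adjusted p = 2.21e-06). NMNAT1, the nuclear enzyme that completes NAD, averaged 11.1 ± 0.323 RPKM in depleted cells and 5.53 ± 0.71 RPKM in full cells and rose, as did AFMID, a formamidase of the route from tryptophan, at 74.0 ± 2.23 RPKM in depleted cells and 42.3 ± 3.11 RPKM in full cells. QPRT, which feeds quinolinate from that route into NAD, fell to 16.0 ± 1.6 RPKM in depleted cells, against 51.5 ± 5.72 RPKM in repleted cells and 54.0 ± 2.84 RPKM in full cells (adjusted p = 2.95e-07 against full cells).

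Of 23 other NAD-consuming enzymes, which draw on the same NAD as sirtuins, 16 were tested. In depleted cells 8 rose and 2 fell against full cells (median 0.31), and 8 rose and 2 fell against repleted cells (median 0.28). Among all tested genes 60.9% and 60.7% passed in these comparisons. PARP1, the main nuclear poly(ADP-ribose) polymerase and the most abundant of the list, measured 266, 254 and 259 RPKM in the depleted libraries, 366, 340 and 347 RPKM in the repleted libraries and 361 RPKM in each of the 3 full libraries. Its depleted libraries lay below all others, and it fell by 0.47 on the log2 scale against full cells (SE 0.03, adjusted p = 1.25e-06). The mono-ADP-ribosyltransferases PARP11 and TIPARP and the tankyrase gene TNKS2 rose by 0.89, 0.41 and 0.34 against full cells (adjusted p = 2.91e-06, 4.97e-05 and 0.000106). CD38, an NAD glycohydrolase of the cell surface, was at or under 0.11 RPKM in every library and was not tested.

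Of 12 known regulators of sirtuins, all tested, 3 rose and 4 fell in depleted against full cells (median log2 difference -0.03, and 0.02 with median centring or quantile normalization), and 3 rose and 5 fell against repleted cells (median 0.04). The sign of either median also changed with 1 library left out, to 0.02 without full 3 and 0.03 without depleted 2 against full cells, and to -0.01 without depleted 3 against repleted cells. Among all tested genes 60.9% passed against full cells and 60.7% against repleted cells. CCAR2, the protein inhibitor of SIRT1 also called DBC1, averaged 84.2 ± 6.13 RPKM in depleted cells, 70.6 ± 4.37 RPKM in repleted cells and 73.9 ± 4.33 RPKM in full cells. It rose by 0.18 against full cells with overlapping libraries (adjusted p = 0.0364), a call lost in 8 of 17 alternatives, 4 of which left out a single library, depleted 1, depleted 2, full 1 or full 3 (adjusted p = 0.118, 0.108, 0.126 and 0.0646). RPS19BP1, the SIRT1 activator AROS, averaged 88.7 ± 1.35 RPKM in depleted cells and 82.8 ± 3.4 RPKM in full cells and did not pass (log2 difference 0.1, adjusted p = 0.104). RPS19BP1 did pass against full cells with median centring (adjusted p = 0.0303) and without library repleted 1 (0.0437). SENP1, a SUMO protease that acts on SIRT1, and E2F1, an activator of its transcription, rose by 0.58 and 0.48 against full cells (adjusted p = 2.57e-05 and 0.00018). KDM1A, a demethylase found in complexes with SIRT1, and CTBP1, a corepressor at its promoter, fell by 0.74 and 0.41 (adjusted p = 1.05e-06 and 0.000228).

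Of 21 tested mitochondrial substrates out of 23 listed, 6 rose and 12 fell in depleted against full cells (median -0.24), and 5 rose and 12 fell against repleted cells (median -0.21). Among all tested genes 60.9% and 60.7% passed in these comparisons. SHMT2, the serine hydroxymethyltransferase desuccinylated by SIRT5, rose to 219 ± 4.99 RPKM in depleted cells, against 112 ± 5.85 RPKM in repleted cells and 104 ± 1.3 RPKM in full cells (adjusted p = 3.66e-08 against full cells). GLUD1, glutamate dehydrogenase and a target of SIRT3 and SIRT4, and SOD2, the superoxide dismutase that SIRT3 deacetylates, rose by 0.83 and 0.59 against full cells (adjusted p = 1.08e-07 and 1.02e-06), while GOT2, an aspartate aminotransferase, fell by 0.78 (adjusted p = 2.24e-07). Of 34 tested nuclear and cytosolic substrates out of 35 listed, 12 rose and 13 fell against full cells (median -0.03, and 0.02 with median centring), and 8 rose and 12 fell against repleted cells (median 0.05, and -0.01 without library depleted 2). TUBA1A and TUBA1B, genes of the alpha-tubulin that SIRT2 deacetylates, fell by 0.54 and 0.33 against full cells (adjusted p = 2.24e-07 and 8.68e-07), with the split of reads between such near-identical genes uncertain. UBTF, the RNA polymerase I factor, fell by 0.77 and ACLY, ATP-citrate lyase and a SIRT2 substrate, rose by 0.48 (adjusted p = 2.69e-07 and 8.72e-07).

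The zinc-dependent histone deacetylases carry zinc at the active site, and several of them share lysine targets with the sirtuins. All 11 were tested, of which 4 rose and 3 fell against full cells (median -0.06), and 2 rose and 5 fell against repleted cells (median -0.08). Against full cells 2 rose without library full 3, depleted 2 or depleted 3 and 5 fell without depleted 1, and against repleted cells 3 fell without depleted 2, depleted 3 or repleted 2. Among all tested genes 60.9% passed against full cells and 60.7% against repleted cells. HDAC8 measured 3.43, 2.67 and 2.32 RPKM in the depleted libraries, 21.5, 23.9 and 23.2 RPKM in the repleted libraries and 22.1, 23.6 and 19.5 RPKM in the full libraries. Its depleted libraries lay far below the others, 7.75-fold lower than full on average (log2 difference -2.59, SE 0.11, adjusted p = 8.53e-08), an estimate farther from 0 than that of any sirtuin. HDAC6, which like SIRT2 deacetylates alpha-tubulin, rose by 0.93, and HDAC3 and HDAC7 fell by 0.49 and 0.74 (adjusted p = 8.52e-06, 3.48e-05 and 4.9e-05). Of the 13 lysine acetyltransferases, which write the mark that sirtuins remove, 4 rose and 2 fell against full cells (median 0.08), and 3 rose and 2 fell against repleted cells (median 0.09), where 5 rose without library repleted 2 and 1 fell without depleted 2, repleted 1 or repleted 2. KAT7, KAT5 and HAT1 rose by 0.9, 0.69 and 0.14 against full cells (adjusted p = 1.3e-06, 6.99e-05 and 0.00572), and NCOA3 fell by 0.59 (adjusted p = 0.000194). In repleted against full cells 0 genes of these 7 lists passed with limma, and 12 of 114, 10.5%, had an unadjusted p under 0.05, against 7.76% of all tested genes.

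**Figure D4:**
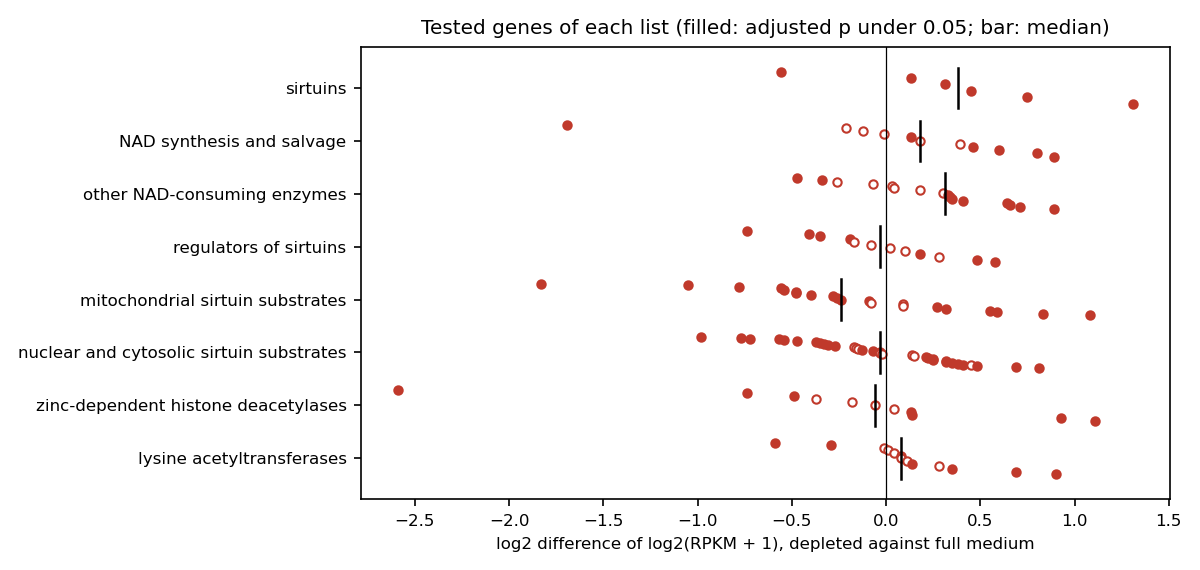
Log2 difference of log2(RPKM + 1) in depleted against full cells (horizontal axis) for each tested gene of the sirtuin family and of 7 related lists, filled where the adjusted p is under 0.05, with a bar at the median of the list. The sirtuins run from -0.56 for SIRT3 to 1.31 for SIRT6, and HDAC8 at -2.59 is the point farthest from 0.

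The genes whose levels ran most like those of each sirtuin over the 9 libraries were found by Pearson's r of log2(RPKM + 1), which here rests largely on the gap between depleted and other libraries. For SIRT6 they were GNPTG (r = 0.9974), HM13 (0.9921) and GRIPAP1 (0.992). GNPTG, a subunit of the enzyme that tags lysosomal hydrolases, averaged 30.1 ± 0.956 RPKM in depleted cells, 14.9 ± 1.38 RPKM in repleted cells and 11.9 ± 0.693 RPKM in full cells. For SIRT1 they were DIS3 (0.9962), a nuclease of the exosome, TADA3 (0.9959), a subunit of histone acetyltransferase complexes, and PLEKHH3 (0.9958). For SIRT3 they were the non-coding RP11-212P7.2 (0.9875), HLA-DMB (0.9869) and ENGASE (0.9807). For SIRT5 they were ULK1 (0.9796), a kinase that starts autophagy, NOMO3 (0.9754), which has near-identical copies that may share its reads, and the pseudogene KLRAP1 (0.9671). For SIRT2 they were ARHGEF2 (0.9899), ZFP28 (0.9841) and LYPLAL1 (0.9789). For SIRT7 the values were lowest, with KDM5C (0.9573), FOXD4 (0.9562) and MST1L (0.9536). The genes are the 3 highest of 15774 for each sirtuin and are listed as a description.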

How the data were processed

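The authors deposited 1 table with log2(RPKM + 1) per gene for 9 libraries, per the file headers. Poly(A) libraries were sequenced from single ends, per the labels' protocols. RSEM 1.2.6, Bowtie 1.0.1, BWA 0.7.12-r1039, bedtools 2.25.0.3, hg19 and GRCh37 are named in the submitters' processing notes, with no role stated. Depth, strand and any scaling between libraries are not given in the sources used here, so no counting interval was computed. Once the log was undone, 100% of values were whole steps of 0.01 RPKM (tolerance 0.0002). There were 57766 genes, 20320 blank rows and 0 columns of unknown sample.

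limma 3.58.1 (R 4.3.3) with a mean-variance trend was fitted to the deposited log2 values in 1 model of 9 libraries, on genes reaching 1 RPKM in 3 or more libraries, with Benjamini-Hochberg adjustment over all of them and a threshold of 0.05. Fold changes are ratios of mean RPKM. The model was run on simulated libraries with known shifts in a small part of the genes. Its setting differs from the wide background of changed genes here, so it does not check calls made under that background.

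The members and the 10 other lists were chosen with earlier results of these data known. Picked were all members, the 4 genes of each list lowest in p in the depleted against full comparison, and regulators acting directly on a sirtuin. Also picked were the 3 genes most like each member and neighbouring genes. Of the zinc genes, the lineage markers and the untested neighbours, only some are given in the text. CD38 was named after its values were seen. Values of 1 listed gene are not reported here on their own, and it is counted within its lists. Promoters came from RefSeq, neighbours from GENCODE 29. The 17 alternatives varied pseudocount, filter, libraries, scaling, block and threshold. matplotlib 3.10.9 in Python 3.11.15 drew the figures.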

Additional observations from a re-analysis of the deposited data

How the results depend on the processing

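Under the 17 alternatives the count of sirtuins past the threshold was 4 to 6 of 6 in depleted against full cells, 4 to 6 in depleted against repleted cells and 0 in repleted against full cells. The background moved as well. In depleted against full cells 7604 of 15774 genes passed at a threshold of 0.01 and 9757 of 15774 with only the 6 libraries compared. In depleted against repleted cells 7541 of 15774 passed at 0.01 and 9558 of 15774 with median centring. With no filter 9562 and 9483 of 36433 genes passed. The picked genes that were tested had 1284 alternative values in each comparison. Of these, 1233 kept direction and side of the threshold in depleted against full cells (43 lost the call, 8 gained it). In depleted against repleted cells 1224 did (53 lost, 7 gained), and in repleted against full cells 1239 (0 lost, 5 gained). The other 40 values, all in repleted against full cells and of 21 genes, changed sign, and none of these differences had passed the threshold. With 1 library left out, the log2 difference between repleted and full cells ran, for the sirtuins among them, for SIRT2 from -0.038 to 0.0, SIRT3 from -0.027 to 0.232 and SIRT7 from -0.049 to 0.135. For genes of the lists it ran for NMNAT1 from -0.033 to 0.133, AFMID from -0.033 to 0.07, RPS19BP1 from -0.064 to 0.014, SOD2 from -0.019 to 0.027, GOT2 from -0.05 to 0.01, HDAC8 from -0.002 to 0.13, KAT5 from -0.026 to 0.151 and NEFL from -0.038 to 0.034. For genes most like a sirtuin or next to one it ran for ZFP28 from -0.159 to 0.002, LYPLAL1 from -0.06 to 0.053, RP11-212P7.2 from -0.013 to 0.115, HLA-DMB from -0.083 to 0.137, FOXD4 from -0.037 to 0.227, MST1L from -0.011 to 0.359, HERC4 from -0.013 to 0.075, PXN from -0.005 to 0.092, the antisense RNA overlapping SIRT5 from -0.09 to 0.116 and PYCR1 from -0.041 to 0.014. The other sign changes were SOD2 with median centring (-0.003) and quantile normalization (-0.004), HLA-DMB with a pseudocount of 0.1 (-0.004), median centring (-0.001) and quantile normalization (-0.016), and that antisense RNA with quantile normalization (-0.005). The count of genes of the whole table past the threshold in repleted against full cells was 5, and 3 with a pseudocount of 0.1, 2 with no filter, 2 with only the 6 libraries compared, 2 with the replicate block, 1 at a threshold of 0.01, and between 1 and 8 with a library left out. The causes were not tested. The labels state no pairing by replicate number. The correlation of residuals was -0.0144 to 0.0726 for equal numbers and -0.0609 to 0.0416 for others, which cannot exclude a pairing. With the replicate block 6 and 4 sirtuins passed in the depleted comparisons, beside 9511 and 9472 of all 15774 tested genes. There SIRT5 against repleted cells was lost (adjusted p = 0.0741). Median centring gave 5186 genes higher and 4498 lower in depleted against full cells, and quantile normalization 5062 and 4538. Depth is unknown, so what it limits at the level of SIRT4 could not be computed, and a single line with 3 libraries per medium limits the precision.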
